A study of Oryza sativa with 6 samples.

Results

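The genes described here build, loosen or cut the polysaccharides of the rice cell wall. They were taken by a rule on names, from the gene symbols and synonyms of the array annotation. The set was chosen with earlier results of these data known. It held the cellulose synthases (CESA), the cellulose synthase-like proteins (Csl) and the expansins (EXPA, EXPB and EXLA). The xyloglucan transglycosylases (XTH), the endo-1,4-β-glucanases (GLU) and the endo-β-mannanases (MAN) were also in it. The rule found 101 named genes, of which 74 had a probe set paired with that gene alone, out of 17905 genes with a probe set of their own. Where a gene had several probe sets, the brightest over the 6 arrays stood for it. Of the 27 named genes without a probe set, 15 were α-expansins and 4 were β-expansins, and the others included *OsGLU3* and *OsMAN2*.

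Transcripts were measured on 6 Affymetrix rice genome arrays in whole seeds of the *indica* variety PB1 at the S3 stage, which spans 5 to 10 days after pollination. The WT group held 3 arrays from wild-type plants, and the MADS29_KD group held 3 arrays from plants with an RNA interference construct against *OsMADS29*, a B-sister MADS-box transcription factor of the seed. The labels do not say which transformed line or how many lines the MADS29_KD arrays came from, or whether replicates came from separate plants, so p-values measure only the spread between these samples. Because whole seeds were used, fewer cells of a type and less RNA per cell cannot be told apart.

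Cellulose is made at the plasma membrane by complexes of CESA proteins, with separate sets of CESA genes for the primary and the secondary wall. Csl proteins make the backbones of the other wall glycans, among them mannans (CslA), xyloglucan (CslC) and, in grasses, the mixed-linkage glucan (CslF and CslH). Expansins loosen the wall without cutting it, XTH proteins cut and rejoin xyloglucan, endoglucanases cut 1,4-β-glucan chains, and mannanases cut mannan, a polysaccharide that seeds of many plants store in or remove from their walls.

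Levels are given on the log2 scale of the deposited signal, and a difference is the mean of MADS29_KD minus the mean of WT with the standard error (SE) of the limma fit. A gene was called when its limma p, adjusted by Benjamini-Hochberg over the 57194 probe sets tested, was under 0.05. Array background was set at the 95th percentile of 64 probe sets for foreign reporter genes, which came to 2.81 to 2.98 per array. The silenced gene read 7.16, 6.60 and 7.30 in WT and 5.17, 5.11 and 4.90 in MADS29_KD, so the groups did not overlap. *OsMADS29* fell by 1.96 ± 0.21, or 3.89-fold (limma adjusted p = 0.00725). A two-sided exact permutation test gave p = 0.10, the smallest value possible with 3 arrays against 3. WT replicate 2 and MADS29_KD replicate 1 stood apart, since their signal at the 5′ end of actin was at background (2.33 and 2.75) whereas it was 5.86 to 6.42 on the other 4 arrays, and calls of named genes that are lost or gained without this pair are given beside them. Those 4 arrays are called the 5′-positive arrays.

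Some markers of seed tissues also moved with the group. Among all genes with their own probe set 10.8% were called higher and 14.8% lower. Of 11 measured endosperm markers 8 rose and 1 was at background, with a summed level of 15.63 to 15.84 in WT and 16.42 to 16.46 in MADS29_KD. Of 11 embryo markers 3 rose and 5 were at background, and their sum was 8.30 to 8.55 in WT and 12.15 to 12.22 in MADS29_KD. The rises were in *RAB21* (7.51), *Osem* (3.46) and *OsVP1* (0.97). *OSH1* (−0.11), *OsWOX13* (−0.04) and *OsWOX11* (0.23) were not called, so the sum reflects few genes. Of 3 aleurone markers 1, *RAmy3E*, rose and 2 were at background (sum 4.13 to 4.21 against 5.94 to 6.44). Of 2 markers of the green pericarp 1, *CAB2R*, fell (−1.20), and *OsrbcS* (−0.23) was not called. Their sum (12.95 to 13.03 against 11.71 to 11.93) reflects mostly *CAB2R*, the far brighter gene. Of 4 anther markers 3 were at background. The part of these shifts in the results on cell wall genes was not tested.

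Of the 74 cell wall genes, 20 were called, 12 higher and 8 lower in MADS29_KD. Among all probe sets tested 11.3% were called (5.07% higher and 6.28% lower), and among the brightest probe sets of all genes with their own 25.7% were called (10.8% higher and 14.8% lower). The share of the cell wall genes, 27%, was therefore near that of genes in general. The groups did not overlap for 45 of the 74, against 58.6% of all probe sets and 59.1% of genes. The median difference over the 74 genes was 0.025, beside 0.013 over all probe sets. With a change of at least 2-fold required as well, 3 were called higher and 6 lower. Both conditions were met by 4.54% of all probe sets and by 10.8% of genes with their own.

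The signal of 26 of the 74 genes (35.1%, against 23.8% of all genes) lay at or under background on all 6 arrays, and their differences ran from −0.15 to 0.10. The other 48 were above background on at least 1 array, and 28 of these were not called. The 29 synthase genes (CESA and Csl) gave 2 called higher and 3 lower, and the 45 genes for loosening or cutting gave 10 higher and 5 lower. Beside these stand the shares among all genes with their own probe set, 10.8% higher and 14.8% lower. A difference between the 2 classes was not tested.

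**Figure D1:**
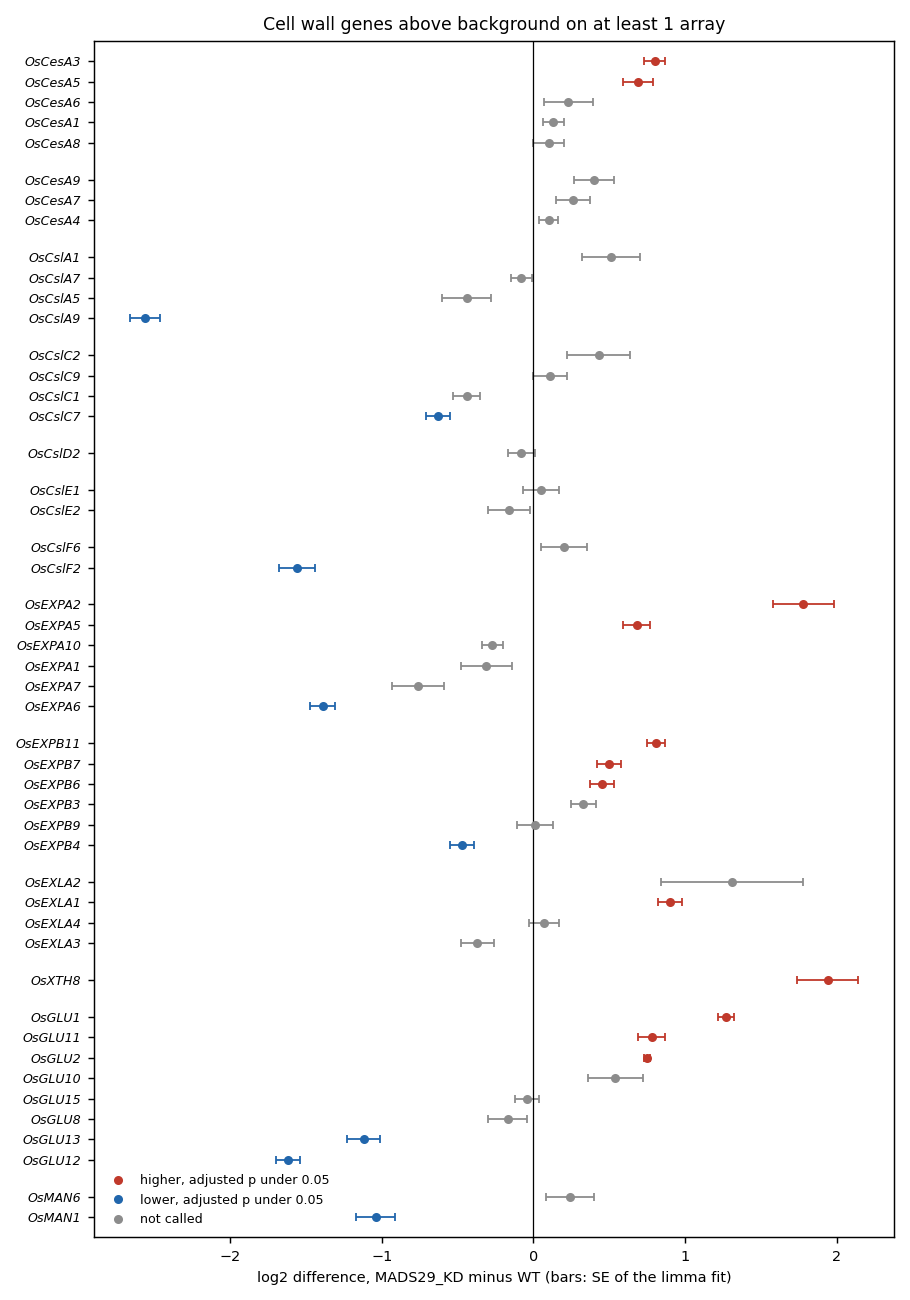
Log2 difference of MADS29_KD minus WT (x axis) for the measured cell wall genes that were above background on at least 1 array, in rows by family, with bars for the SE of the limma fit and colours for the call. *OsCslA9* at −2.56 is the farthest left, and *OsXTH8* at 1.94 and *OsEXPA2* at 1.78 are the farthest right.

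*OsCslA9*, a member of the family that in other plants encodes mannan synthases, had the largest difference of the 74. It read 5.61, 5.90 and 5.58 in WT and 3.17, 3.09 and 3.15 in MADS29_KD. The MADS29_KD arrays lay close together, just above background, and far below every WT array. The level fell by 2.56 ± 0.10, which is 5.89-fold (limma adjusted p = 0.000464). The gene table gives the name OsCslA9 to a second gene as well, which is also called *OsCslA1* and is shown under that name.

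The other 3 measured CslA genes were not called. *OsCslA1* read 3.90, 4.12 and 3.96 in WT and 4.88, 4.42 and 4.22 in MADS29_KD, higher on each MADS29_KD array, but the difference of 0.51 ± 0.19 was not called (adjusted p = 0.162). The values for *OsCslA5* and *OsCslA7* were −0.44 ± 0.16 and −0.08 ± 0.07, and neither was called. Differences between members of the family were not tested.

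*OsMAN1*, an endo-β-mannanase that acts on the polymer CslA proteins make, read 5.44, 5.78 and 5.45 in WT and 4.52, 4.36 and 4.68 in MADS29_KD. The groups did not overlap, and the level fell by 1.04 ± 0.13, or 2.06-fold (limma adjusted p = 0.012). In the 5′-positive arrays the difference was −0.93 and the call was lost (adjusted p = 0.0561), while the remaining pair differed by −1.27. Of the other mannanases, *OsMAN6* read 5.34, 5.76 and 5.40 in WT and 5.90, 5.81 and 5.53 in MADS29_KD, which overlapped, and *OsMAN4* and *OsMAN7* were at background on all 6 arrays.

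Of the genes for the mixed-linkage glucan, *OsCslF2* fell below detection. It read 4.03, 4.05 and 4.13 in WT and 2.27, 2.63 and 2.64 in MADS29_KD, where all 3 arrays were at background. The fall was therefore at least 2.20-fold, a bound set by the background level that was not itself tested. The limma fit, with the MADS29_KD values under background, gave −1.56 ± 0.12 (adjusted p = 0.00248). *OsCslF6*, which encodes the main synthase of this glucan in rice, was well measured at 7.44, 7.06 and 7.31 in WT and 7.31, 7.39 and 7.71 in MADS29_KD. These groups overlapped and the difference was 0.20 ± 0.15 (adjusted p = 0.351). *OsCslF7*, *OsCslF8* and *OsCslH1* were at background throughout.

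In the gene order of the reference annotation *OsCslF9*, *OsCslF8* and *OsCslF2* follow each other, with *OsCslF4* and *OsCslF3* after 1 further gene. Of these, *OsCslF2* alone had a signal, since *OsCslF8* was at background and the other 3 had no probe set of their own.

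Among CslC genes, whose proteins are known in *Arabidopsis* to make the xyloglucan backbone, *OsCslC7* was called. It read 4.96, 5.07 and 5.01 in WT and 4.36, 4.26 and 4.54 in MADS29_KD, and fell by 0.63 ± 0.08 (1.54-fold, adjusted p = 0.0128). That call was lost without WT replicate 3 (adjusted p = 0.0636) and in the 5′-positive arrays (0.109), and its probe set may bind related transcripts. *OsCslC1* was lower by a similar amount, −0.44 ± 0.09, and just missed the threshold (adjusted p = 0.0553). *OsCslC2* and *OsCslC9* had positive differences of 0.43 ± 0.21 and 0.11 ± 0.11 that were not called.

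No CslD or CslE gene was called by limma, and 0 of them had an unadjusted p under 0.05. *OsCslD2*, of a family linked to the walls of tip-growing and dividing cells, had a difference of −0.08 ± 0.09, and the other 3 measured CslD genes were at background. *OsCslE2* had a difference of −0.16 ± 0.14 and *OsCslE1* of 0.05 ± 0.12, and the product of CslE proteins is not settled. Of the 20 measured Csl genes, 3 were called lower and 0 higher by limma. Among all genes with their own probe set 14.8% were called lower and 10.8% higher. At an unadjusted limma p under 0.05, 5 Csl genes were lower and 2 higher. Those on the higher side were *OsCslA1* and *OsCslF7*, the latter at background on all 6 arrays.

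Of 9 cellulose synthase genes 2 were called, and both rose, where 10.8% of all genes with their own probe set were called higher and 14.8% lower. *OsCesA3*, a primary-wall gene, read 7.74, 7.74 and 7.68 in WT and 8.65, 8.53 and 8.38 in MADS29_KD, with no overlap. It rose by 0.80 ± 0.07, or 1.74-fold (limma adjusted p = 0.0045). A dimmer second probe set of the gene, at background on 2 arrays, gave 0.32 ± 0.33.

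*OsCesA5*, also of the primary-wall group, read 6.47, 6.59 and 6.35 in WT and 7.32, 7.15 and 7.04 in MADS29_KD. It rose by 0.69 ± 0.10 (1.62-fold, adjusted p = 0.0162), and the call was lost without WT replicate 1, WT replicate 3 or MADS29_KD replicate 2 (adjusted p up to 0.07). *OsCesA1*, *OsCesA6* and *OsCesA8* had differences of 0.13 ± 0.07, 0.23 ± 0.16 and 0.10 ± 0.10 and were not called, and *OsCesA2* was at background.

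The genes of the secondary wall, *OsCesA4*, *OsCesA7* and *OsCesA9*, known from brittle culm mutants, were all above background and 0 of them were called by limma, with 1, *OsCesA9*, at an unadjusted p under 0.05. *OsCesA4* read 7.69, 7.58 and 7.69 in WT and 7.66, 7.78 and 7.81 in MADS29_KD, which overlapped (difference 0.10 ± 0.06). *OsCesA7* gave 0.26 ± 0.11 and *OsCesA9* gave 0.40 ± 0.13 (adjusted p = 0.193 and 0.14).

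**Figure D2:**
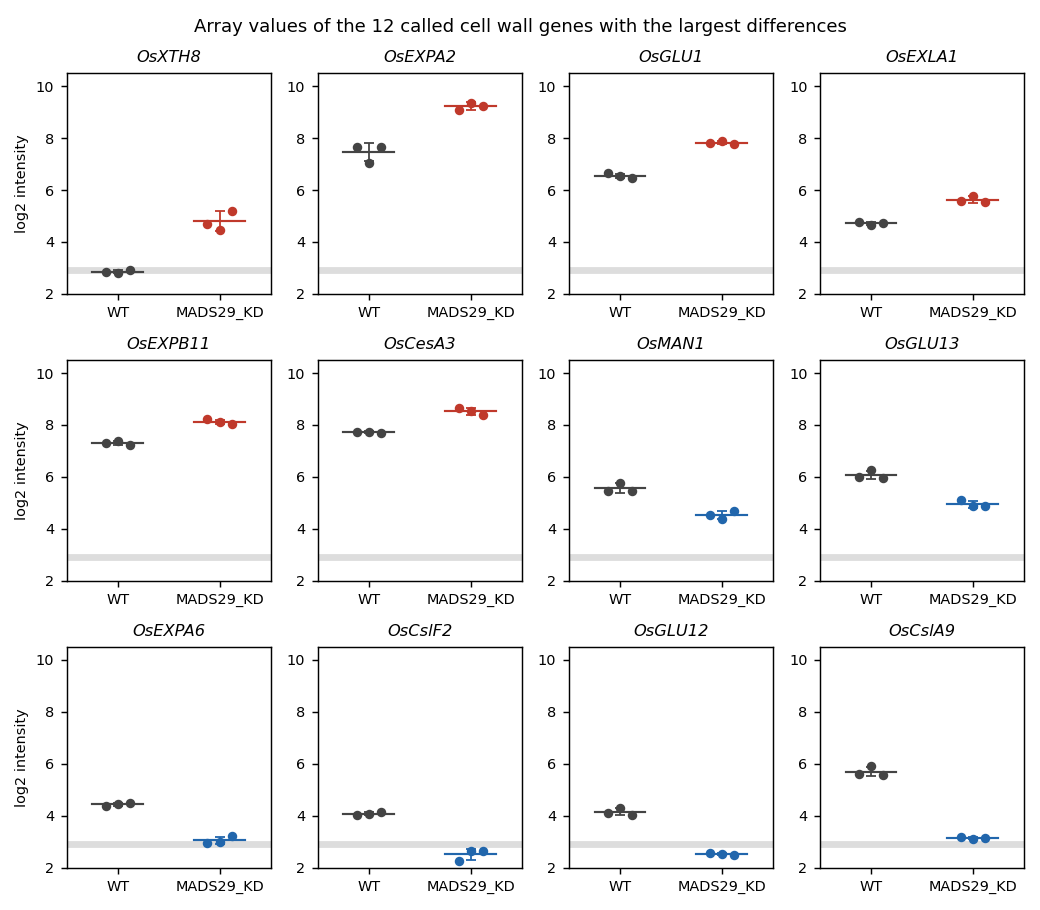
Log2 signal (y axis) on each array for the 12 called cell wall genes with the largest differences, WT beside MADS29_KD, with points for arrays, lines for group means, bars for the SD of 3 arrays and a grey band for the range of array background. The groups do not overlap in any panel, which the choice of these genes required. All MADS29_KD points of *OsCslF2* and *OsGLU12* and all WT points of *OsXTH8* lie in or under the band. Some MADS29_KD points of *OsEXPA6* lie in it.

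Of 29 expansin genes 6 rose and 2 fell, and 13 were at background on all 6 arrays. For all genes with their own probe set the shares were 10.8% higher, 14.8% lower and 23.8% at background. *OsEXPA2*, an α-expansin, read 7.67, 7.06 and 7.64 in WT and 9.08, 9.37 and 9.25 in MADS29_KD. Every MADS29_KD array was more than 1 log2 unit above every WT array. The rise was 1.78 ± 0.20, or 3.43-fold (limma adjusted p = 0.00767).

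*OsEXPA6* went the other way, from 4.39, 4.44 and 4.50 in WT to 2.95, 2.97 and 3.22 in MADS29_KD, where 1 array was at background. It fell by 1.39 ± 0.08 (2.63-fold, adjusted p = 0.00139). *OsEXPA5* read 5.20, 5.36 and 5.36 in WT and 6.04, 5.82 and 6.11 in MADS29_KD, a rise of 0.68 ± 0.09 (1.60-fold, adjusted p = 0.014). The call of *OsEXPA5* was lost without WT replicate 1, WT replicate 3 or MADS29_KD replicate 1 (adjusted p up to 0.0588) and in the 5′-positive arrays (0.101).

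*OsEXPA7* was lower without overlap, at 7.84, 7.63 and 7.93 in WT and 6.73, 7.21 and 7.20 in MADS29_KD. Its difference of −0.76 ± 0.17 missed the threshold (adjusted p = 0.0601) and passed it in the 5′-positive arrays (0.0125). *OsEXPA10* was bright and had a difference of −0.27 ± 0.07 (adjusted p = 0.0986), and *OsEXPA1* was near background. The other 8 of the 14 measured α-expansins were at background.

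Among β-expansins, a group that is large in grasses, *OsEXPB11* changed the most. It read 7.31, 7.39 and 7.24 in WT and 8.22, 8.10 and 8.05 in MADS29_KD, with no overlap, and rose by 0.81 ± 0.06 (1.76-fold, limma adjusted p = 0.00258). *OsEXPB7* rose by 0.50 ± 0.08, from 6.47, 6.63 and 6.45 to 7.10, 6.89 and 7.05 (adjusted p = 0.0227). The call of *OsEXPB7* was lost without any 1 of WT replicate 1, WT replicate 3, MADS29_KD replicate 1 and MADS29_KD replicate 3 (adjusted p up to 0.0924).

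Neighbouring β-expansin genes had unlike differences, which were not tested against each other. *OsEXPB6*, *OsEXPB2*, *OsEXPB3* and *OsEXPB4* follow each other in the reference annotation. *OsEXPB6* rose by 0.45 ± 0.08, from 6.05, 6.24 and 6.03 to 6.59, 6.63 and 6.44 (adjusted p = 0.035), *OsEXPB2* was at background, and *OsEXPB4* fell by 0.47 ± 0.08, from 10.11, 9.99 and 10.17 to 9.51, 9.60 and 9.76 (adjusted p = 0.0324). Both calls were marginal: that of *OsEXPB6* was lost without WT replicate 1, WT replicate 3, MADS29_KD replicate 1 or MADS29_KD replicate 2 (adjusted p up to 0.127), that of *OsEXPB4* without any 1 array other than MADS29_KD replicate 3 (up to 0.119), and both in the 5′-positive arrays (0.0721 and 0.0672). The probe set of *OsEXPB4* may also bind related transcripts.

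*OsEXPB3*, between them, read 11.33, 11.56 and 11.31 in WT and 11.78, 11.66 and 11.74 in MADS29_KD. The groups did not overlap, and the difference of 0.33 ± 0.08 was not called (adjusted p = 0.0766) but passed the threshold in the 5′-positive arrays, where it was 0.38 (0.0245). *OsEXPB7* has *OsEXPB8* as its neighbour, which was at background. *OsEXPB9* had a difference of 0.01 ± 0.12, and the other 5 of the 11 measured β-expansins, *OsEXPB2* and *OsEXPB8* among them, were at background.

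In the expansin-like A family, whose action on the wall is not established, *OsEXLA1* rose. It read 4.76, 4.66 and 4.74 in WT and 5.57, 5.77 and 5.52 in MADS29_KD, a rise of 0.90 ± 0.08 without overlap (1.86-fold, adjusted p = 0.0036). *OsEXLA2* read 2.79, 2.47 and 3.00 in WT, with 2 arrays at background, and 3.11, 4.75 and 4.34 in MADS29_KD. Its probe set may bind related transcripts, and a second probe set of the gene gave 0.71 ± 0.35 (limma adjusted p = 0.226). The low MADS29_KD value and the lowest WT value were those of the pair without 5′ actin signal, and the difference of 1.31 ± 0.47 was not called (adjusted p = 0.155) but passed the threshold in the other 4 arrays (0.0385). *OsEXLA3* and *OsEXLA4* had differences of −0.37 ± 0.11 and 0.07 ± 0.10 that were not called.

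*OsXTH8*, the 1 measured XTH gene, known as a gene that gibberellin induces, had the highest rise of the 74. It read 2.85, 2.80 and 2.92 in WT, with 1 array at background and the others just above it, and 4.71, 4.46 and 5.21 in MADS29_KD. The rise of 1.94 ± 0.20 was 3.83-fold (limma adjusted p = 0.00676), a fold that rests on WT values near background. In the 5′-positive arrays the rise was of like size but not called (adjusted p = 0.0689).

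Of 11 endoglucanase genes 3 rose and 2 fell, beside 10.8% higher and 14.8% lower among all genes with their own probe set. *OsGLU1*, a membrane-anchored endoglucanase known from a dwarf mutant, read 6.64, 6.54 and 6.48 in WT and 7.82, 7.87 and 7.77 in MADS29_KD. The arrays of each group lay within 0.2 log2 units of each other and the groups were well apart. The rise was 1.27 ± 0.05, or 2.41-fold (adjusted p = 0.000541).

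*OsGLU2* read 8.86, 8.89 and 8.83 in WT and 9.64, 9.63 and 9.58 in MADS29_KD, a rise of 0.75 ± 0.02 with the smallest adjusted p of the 74 genes (0.00032). *OsGLU11* read 5.25, 5.20 and 5.24 in WT and 5.86, 5.97 and 6.18 in MADS29_KD, and rose by 0.78 ± 0.09 (1.71-fold, adjusted p = 0.00841). Neither gene overlapped between groups. *OsGLU10* was also higher on each MADS29_KD array, by 0.54 ± 0.18, but was not called (adjusted p = 0.131). *OsGLU8* and *OsGLU15*, both close to background, had differences of −0.17 ± 0.13 and −0.04 ± 0.08, and the other 3 uncalled endoglucanase genes were at background.

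*OsGLU12* and *OsGLU13* fell. *OsGLU12* read 4.10, 4.30 and 4.04 in WT and 2.58, 2.51 and 2.49 in MADS29_KD, where all 3 arrays were at background. The fall was therefore at least 2.31-fold, a bound that was not itself tested. The limma fit, with the MADS29_KD values under background, gave −1.62 ± 0.08 (adjusted p = 0.000815). The second probe set of *OsGLU12* was at background on all 6 arrays. *OsGLU13* read 6.0, 6.25 and 5.95 in WT and 5.11, 4.88 and 4.86 in MADS29_KD, which did not overlap, and fell by 1.12 ± 0.11 (2.17-fold, adjusted p = 0.0059).

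The pair of arrays without 5′ actin signal was compared with the other 4 arrays for every gene. Of the 20 called genes, 14 stayed called in the 4 arrays alone and all 20 kept their direction. Those not called there were *OsCslC7*, *OsMAN1*, *OsEXPA5*, *OsEXPB4*, *OsEXPB6* and *OsXTH8*.

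**Figure D3:**
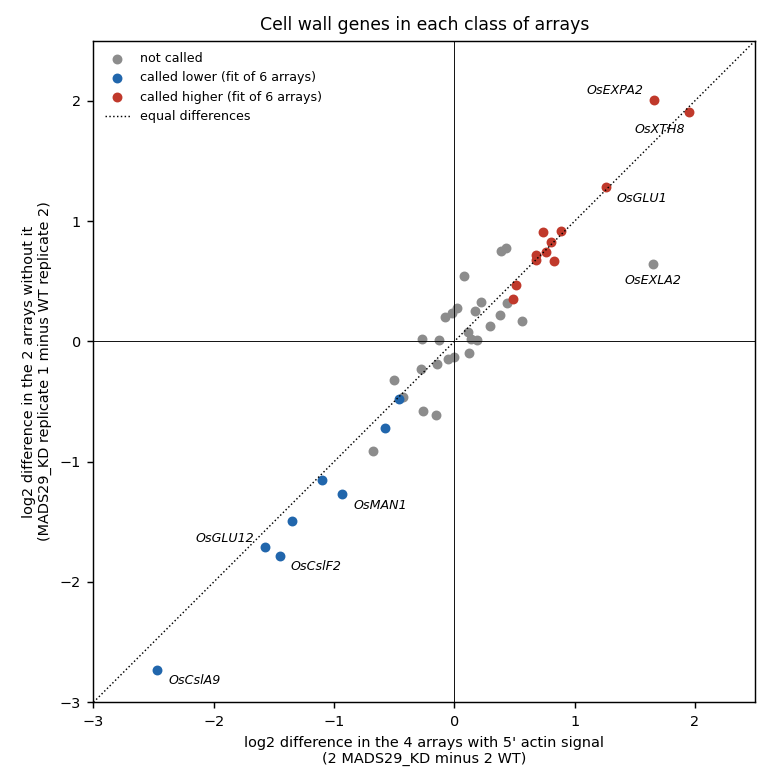
Log2 difference of the cell wall genes above background on at least 1 array in the 4 arrays with 5′ actin signal (x axis) against that in the pair without it (y axis), coloured by the call from all 6 arrays, with a dotted line for equal differences. The called genes lie on the same side of 0 on both axes, and *OsEXLA2* is far from the line.

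Other genes of the wall were read from lists of names chosen for their role, 57 of them measured, of which 10 rose, 5 fell and 17 were at background. The share called, 26.3%, was near the 25.7% of all genes with their own probe set. Of 10 genes that supply nucleotide sugars 2 rose and 1 fell: *OsUGE-4*, a UDP-glucose epimerase, rose by 1.42 ± 0.10 (limma adjusted p = 0.00214), *OsGME-1*, a GDP-mannose epimerase, rose by 0.42 ± 0.07 (0.0287), and *Os-UGD5*, a UDP-glucose dehydrogenase, fell by 0.41 ± 0.07 (0.0287). The call of *OsGME-1* was lost without any 1 array (adjusted p up to 0.106) and that of *Os-UGD5* without any 1 WT array or MADS29_KD replicate 2 (up to 0.107), and both were lost in the 5′-positive arrays (0.144 and 0.0866). Of 10 glycosyltransferases and related proteins of the matrix 2 rose and 2 fell. *OsGT43E* and *OsGT43A*, of the family that makes the xylan backbone, rose by 1.04 ± 0.13 and 0.84 ± 0.17 (0.0108 and 0.0492), and these calls were lost in fits without single arrays (up to 0.0578 and 0.139), that of *OsGT43E* also in the 5′-positive arrays (0.0608). The probe sets of *OsGT43E* and *Os-UGD5* may bind related transcripts. *OsUAM3*, of the UDP-arabinose mutase family, fell by 1.64 ± 0.08 (0.000915), and *OsGT43C* fell to background, by at least 1.01-fold. The limma fit of *OsGT43C*, with the MADS29_KD values under background, gave −0.49 ± 0.02 (adjusted p = 0.000474).

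The remaining lists were mixed as well. *BC1L6*, a COBRA-like gene, rose by 1.70 ± 0.13 (limma adjusted p = 0.00295) among 4 genes that aid cellulose deposition, and *OsAGP1*, an arabinogalactan protein, rose by 0.90 ± 0.08 (0.00403). Of 9 genes for pectin modification and BURP-domain proteins, 6 were at background, *OsPMEI8*, a pectin methylesterase inhibitor, rose by 2.10 ± 0.12 (0.00135), and *OsBURP03* fell by 1.23 ± 0.10 (0.00302). Of 23 lignin genes 10 were at background, 3 rose and 1 fell. The laccase gene *LAC7* rose by 1.48 ± 0.25 (0.0273) and *OsCAD3*, a cinnamyl alcohol dehydrogenase, by 0.78 ± 0.10 (0.0127), both calls being lost in fits without single arrays (up to 0.0797 and 0.059), and that of *LAC7* also in the 5′-positive arrays (0.117). *OsCAD8C*, of the same family as *OsCAD3*, fell by 2.04 ± 0.13 (0.00177).

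**Figure D4:**
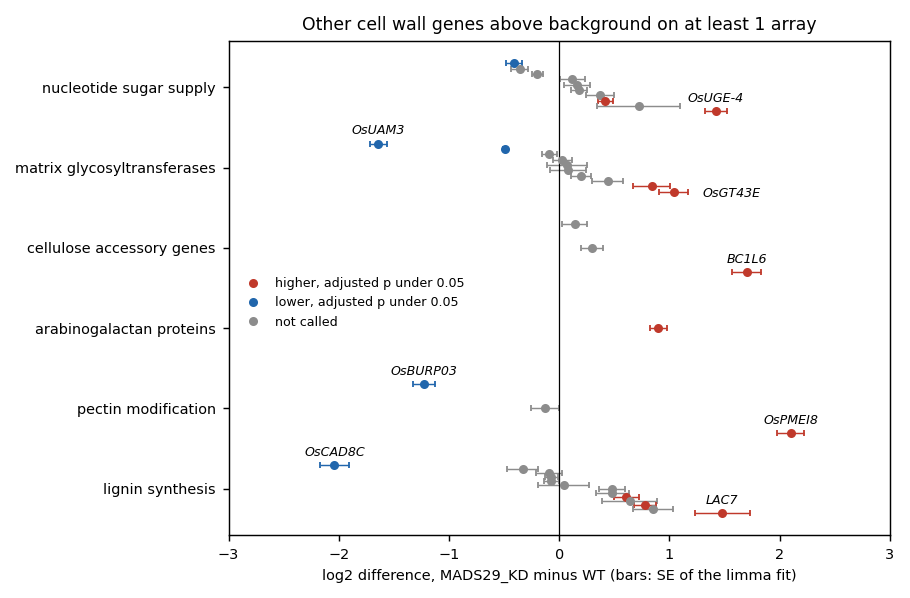
Log2 difference of MADS29_KD minus WT (x axis) for the other cell wall genes above background on at least 1 array, in rows by list, with bars for the SE of the limma fit and colours for the call. Called genes lie on both sides of 0, from *OsCAD8C* at −2.04 to *OsPMEI8* at 2.10.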

How the data were processed

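The deposited table held linear intensity values (3.98 to 16101) of 57381 probe sets on 6 arrays. Biotin-labelled cRNA had been made from 500 ng of Trizol-extracted total RNA. For background correction, summarization, normalization and software the authors' choices were not given in the sources used here, so how they shaped low values and the spread between arrays is unknown. Values were not normalized again. After 123 Affymetrix and 64 reporter control probe sets were left out, log2 values of 57194 were fitted with limma 3.58.1 (lmFit and eBayes, R 4.3.3) as MADS29_KD against WT, without a block, with Benjamini-Hochberg adjustment. The precision is limited by 3 arrays per group. The annotation paired 22436 probe sets with 1 gene, names came from RefSeq genes of assembly ASM3414082v1, which served for names and gene order only, and coordinates are left out since no build is named for the array.

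Cell wall genes and the other lists were chosen with earlier results of these data known. *OsCslA9*, *OsMAN1*, every called cell wall gene and, in sub-families without a call, the brightest gene in WT were named, with up to 2 genes per direction in each other list. Some further genes that were not called were named after their values were seen. Where all 3 arrays of the dim group were at background, the fold is a bound, taken per array against the higher of signal and background. Alternatives were quantile normalization, median centring, a filter on dim probe sets, array weights, blocks for replicate number and for 5′ signal, the mean of all probe sets of a gene, dropping probe sets shared between transcripts, a 2-fold requirement and leaving out each array. Values of the pair without 5′ actin signal were added after seeing the data.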

Additional observations from a re-analysis of the deposited data

How the results depend on the processing

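Under quantile normalization, median centring, the filter on dim probe sets, array weights and the 5′ class block, all 20 called cell wall genes stayed called. In these fits, in those with the replicate block or the 5′-positive arrays, and with each array left out, they kept their direction. The mean of all probe sets and the drop of shared probe sets were run only for the counts and the median over the cell wall genes. With a 2-fold requirement 3 were higher and 6 lower, and over all probe sets 1170 and 1426. Array weights raised the probe sets called higher to 4765. Leaving out single arrays gave 8 to 13 cell wall genes higher and 6 to 8 lower, 4 to 8 and 4 to 6 of the other wall genes, and 1499 to 2490 and 2097 to 3191 of all probe sets. The deviations of same-numbered arrays correlated at −0.543, −0.542 and 0.435, and those of WT replicate 2 and MADS29_KD replicate 1 at 0.677. These values cannot show whether the replicate numbers pair the samples, because the pair without 5′ actin signal has unlike numbers. With the replicate block 4 cell wall genes were called higher and 4 lower, 5 and 3 of the other wall genes, and 997 and 1143 of all probe sets, and *OsMADS29* stayed at −1.96 with a limma adjusted p of 0.0796. Signs turned only in genes that were not called, and the cause was not tested. *OsCslA7* came to 0.03 after quantile normalization, *OsGLU15* to 0.05 after it and 0.03 with array weights, *OsEXPB9* to −0.01 after median centring, and *OsEXPB9* and *OsEXLA4* to −0.08 and −0.02 in the 5′-positive arrays. With single arrays left out the differences ran from −0.14 to 0.01 for *OsCslD2*, −0.03 to 0.14 for *OsCslE1*, −0.06 to 0.11 for *OsEXPB9* and −0.09 to 0.04 for *OsGLU15*. With 3 arrays per group, signals near background limit what could be called in the dim families.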
